A study of Mus musculus with 6 samples.

Results

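The interferon-stimulated genes are described here as a set of 47 genes, found in the deposited count table by their gene names. All 47 were among the 31613 genes of the table, each by its exact symbol, and all 47 passed the filter on low counts that left 16519 genes for testing. They were read in 6 RNA-seq libraries of mouse dental papilla cells (mDPCs), a mesenchymal population that gives rise to odontoblasts, the cells that lay down dentin. These cells were isolated at postnatal day 6. Each group had 3 libraries, of Dmp1-Cre;Setd2 fl/fl mice, here called cKO, and of control mice. The labels call the controls wild type and the study's methods describe them as Setd2 fl/fl littermates on a C57BL/6J background. Setd2 encodes the enzyme that places trimethylation on lysine 36 of histone H3, and the Dmp1 promoter drives Cre in the odontoblast layer, so the other cells of the papilla and pulp keep the gene. Each library was made from RNA pooled from 3 biological replicates, and the p-values below measure the spread between such pools. The sources used here do not show that the pools of a group held separate animals. The study's supplement lists 6 mice of each genotype for this RNA-seq collection, too few for 3 pools of 3 separate mice. The pools of a group may therefore share mice, so every SD, SE and p below may in part be technical.

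Interferons are secreted proteins that cells release on meeting a virus or other foreign nucleic acid. Type I interferons bind the IFNAR1 and IFNAR2 receptor and type II interferon binds the IFNGR1 and IFNGR2 receptor, after which Janus kinases activate STAT proteins. A complex that includes IRF9 binds a DNA element called the interferon-stimulated response element (ISRE), and type II interferon acts through the gamma-activated site (GAS). The induced genes encode RNA sensors, antiviral effectors, the ubiquitin-like protein ISG15 with its enzymes, and the machinery that presents peptides on major histocompatibility complex (MHC) class I, and most of them are also transcribed at a low resting level. Macrophages and other myeloid cells express many of them strongly.

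Promoter letters were searched in RefSeq windows (GRCm38.p6) that hold the 250 bases before each gene start and the 50 bases after it, and 39 of the 47 genes had such a window. An ISRE was taken as GAAANNGAAA and a GAS as TTCNNNGAA, both on either strand, and 2 matches to the ISRE may share bases. In the 250 bases before the start, 13 of the 39 genes (33.3%) held an ISRE, against 3.46% of the 27025 genes with a window. A GAS was present in 9 of the 39 (23.1%), against 8.13% of all genes. By role, the ISRE stood before 9 of the 15 antiviral effectors with a window and before 0 of the 4 receptors. Of the genes described in full below, 4 hold an ISRE before the start, and for each of them the cKO and control libraries overlapped. Their stretches follow, printed 5′ to 3′ on the strand of the gene with the ISRE in capitals. They are chr12:26456453-26456702 on the minus strand for Rsad2, chr8:46739495-46739744 on the plus strand for Irf2, chr3:142559794-142560043 on the plus strand for Gbp3 and chr2:122147437-122147686 on the plus strand for B2m.
Rsad2: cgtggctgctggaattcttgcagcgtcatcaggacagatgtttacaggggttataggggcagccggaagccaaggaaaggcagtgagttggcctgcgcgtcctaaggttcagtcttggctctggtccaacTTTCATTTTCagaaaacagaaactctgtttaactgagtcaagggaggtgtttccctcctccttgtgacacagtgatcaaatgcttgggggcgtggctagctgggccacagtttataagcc
Irf2: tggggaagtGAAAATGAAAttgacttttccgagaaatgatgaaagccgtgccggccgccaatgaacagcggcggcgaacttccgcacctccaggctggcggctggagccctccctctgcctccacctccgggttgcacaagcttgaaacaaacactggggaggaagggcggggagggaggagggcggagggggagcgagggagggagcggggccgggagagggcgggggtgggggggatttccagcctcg
Gbp3: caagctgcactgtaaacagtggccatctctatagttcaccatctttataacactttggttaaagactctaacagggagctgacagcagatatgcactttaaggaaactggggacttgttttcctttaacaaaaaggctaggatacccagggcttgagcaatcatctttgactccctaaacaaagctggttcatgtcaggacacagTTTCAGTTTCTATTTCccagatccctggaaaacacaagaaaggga
B2m: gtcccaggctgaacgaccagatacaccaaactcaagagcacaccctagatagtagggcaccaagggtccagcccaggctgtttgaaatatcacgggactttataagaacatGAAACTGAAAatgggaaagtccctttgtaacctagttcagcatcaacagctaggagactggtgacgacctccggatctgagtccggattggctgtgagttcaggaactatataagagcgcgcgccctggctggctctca
Gbp3 held 2 overlapping matches, the first of which began 45 bases before the start, and the single match of Irf2 began 241 bases before it. Oas3, Ifit1 and Isg15 also held the element, with 3 matches before Isg15, while Ifitm1 had a window without these letters before the start and Mx1, Mx2, Oas2, Dhx58, Usp18, Parp14, Rtp4 and Ifi27 had no entry.

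**Figure D1:**
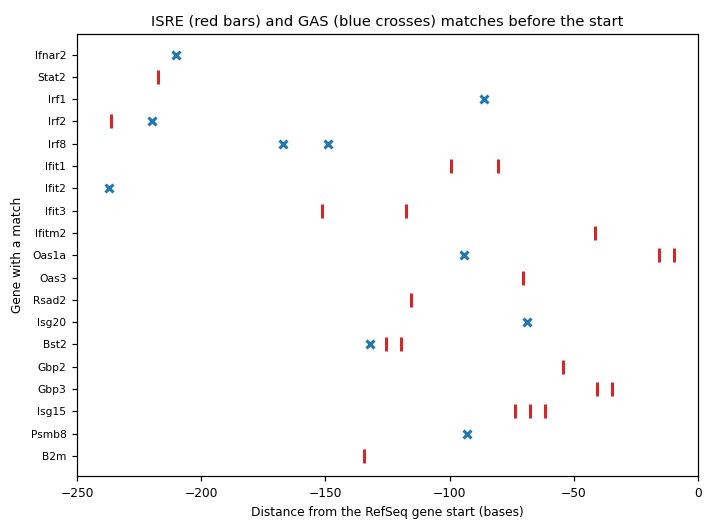
Each mark is a match to the ISRE (red bars) or GAS (blue crosses) letters at its distance in bases before the RefSeq gene start (horizontal axis), for each gene with a match (vertical axis). Matches to the ISRE stand in 13 genes, mostly antiviral effectors, and Isg15 has 3.

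The depth of the libraries was even, from 18557647 to 19210750 counts. The whole-gene count of Setd2 did not separate the groups, at 98, 96.5 and 92 CPM (counts per 1000000 counts of a library after TMM scaling) in control replicates 1, 2 and 3 and at 102, 98.5 and 96 CPM in the cKO, and it includes exons that a conditional deletion leaves in place and cells without Cre, so it is no check of the labels. Dspp, which encodes the main non-collagenous dentin protein, stood at 14165, 14372 and 13900 CPM in the controls and at 436, 215 and 5299 CPM in the cKO. At the study's thresholds 8 of 12 measured odontoblast markers were lower in the cKO, beside 2.71% of all genes tested. Replicate 3 stood apart in both groups, with enamel epithelium genes such as Amelx (16218 and 26408 CPM, against 823 to 3193 CPM in the other 4 libraries), and each result on the genes below is therefore given with and without it where that changes a call.

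Few interferon-stimulated genes differed between cKO and control by more than the spread of the libraries. At the thresholds used by the study, a p under 0.05 before adjustment together with a change of 0.58 or more on the log2 scale, 2 of 47 genes were higher in the cKO, Ifitm1 and Ifi44, beside 1.1% of all genes tested. None of the 47 was lower, beside 2.71% of all genes. None passed an adjusted p under 0.05 in edgeR's quasi-likelihood test, which called 0.0% of all genes, and 2 of 47 had an unadjusted p under 0.05. DESeq2 called 0 of 47 at an adjusted p under 0.05 (0.842% of all genes) and limma voom with quality weights called Ifitm1 and Ifi44 (8.38% of all genes). At the study's thresholds DESeq2 called 3 of 47 higher, Ifitm1, Ifi44 and Rsad2, beside 212 of 16506 genes. The median log2 fold change over the 47 genes was 0.13, with 32 above 0 and 15 below, beside a median of 0.02 over all genes tested. Without cKO replicate 2, edgeR called 0 genes higher. Ifitm1 then fell under the threshold of 0.58, at a log2 fold change of 0.53, with an unadjusted p of 0.00467. Ifi44 stayed over that threshold at 0.78, and its unadjusted p was 0.119.

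The libraries within a group were far apart for these genes. The highest of the 6 libraries was cKO replicate 2 for 33 of 47 genes (70.2%, against 29.3% of all genes tested), and the lowest was replicate 3 of either group for 37 of 47 (78.7%, against 37.9%). Replicate 3 was the lowest library within both groups for 32 genes (68.1%, against 27.7%). The median over the genes of the within-group SD of log2 CPM was 0.52, against 0.24 for all genes tested. Set against the control mean, the median log2 level of the 47 genes was 0.25, 0.13 and -0.36 in control replicates 1, 2 and 3 and 0.03, 0.50 and -0.39 in cKO replicates 1, 2 and 3. The cKO thus held both the library with the highest and the library with the lowest median.

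**Figure D2:**
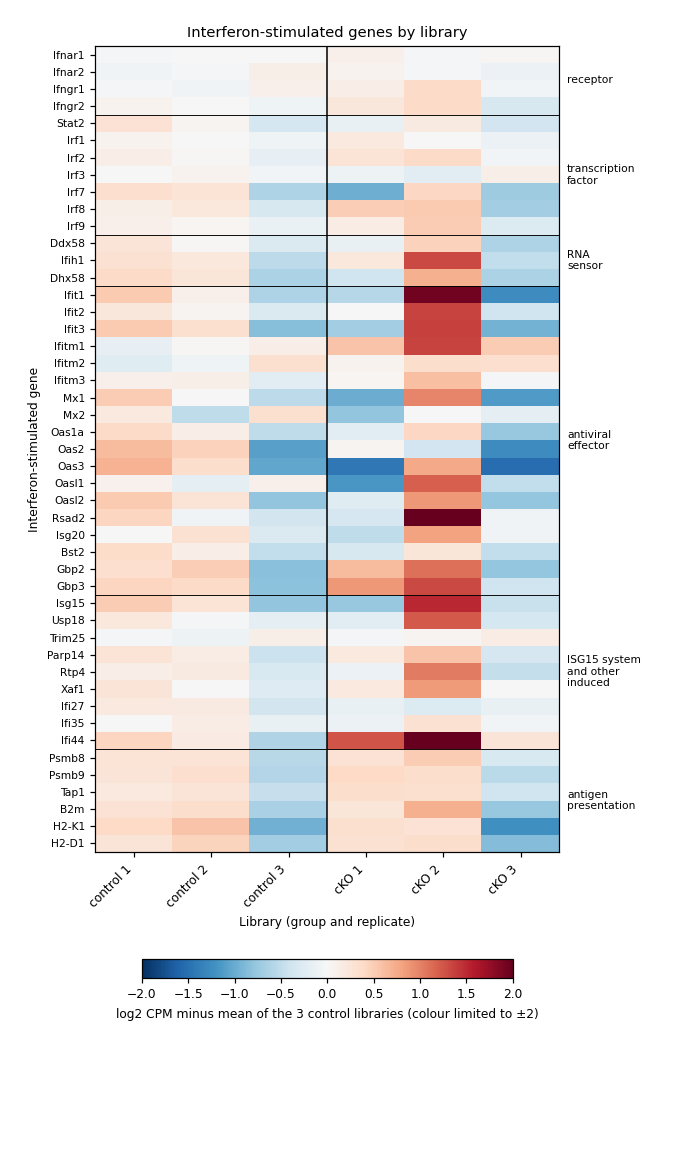
Colour gives the log2 CPM of each of the 47 genes (rows, by role) in each of the 6 libraries (columns), minus the mean of the 3 controls. The cKO replicate 2 column is the reddest, with Rsad2 and Ifi44 beyond the colour limit of 2, while replicate 3 is blue in both groups for most antiviral and antigen presentation genes and the receptor rows are paler than most.

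None of the interferon receptors passed the thresholds, and the type I receptor chains varied less between libraries than Ifngr2. Ifnar1, the signalling chain of the type I receptor, stood at 93.7, 95.7 and 95.5 CPM in the controls and at 102, 92.9 and 96 CPM in the cKO, a mean of 94.9 ± 1.10 against 97 ± 4.72 (SD, n = 3 each). Ifngr1, the ligand-binding chain of the type II receptor, stood at 118, 116 and 130 CPM against 132, 158 and 117 CPM. Ifngr2, its partner chain, was at 39.8, 38.3 and 35.7 CPM against 44.2, 49.6 and 30.3 CPM. The groups overlapped for all 4 receptor genes, whose log2 fold changes ran from -0.03 to 0.16. The smallest adjusted p among them was 0.761, for Ifngr1. Without replicate 3, Ifnar2, Ifngr1 and Ifngr2 had both cKO libraries above both controls, with log2 fold changes of 0.32 for Ifngr1 and 0.27 for Ifngr2, and none passed the thresholds.

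Of the 7 transcription factors none passed the thresholds. Irf3, the constitutive factor that starts interferon transcription, stood at 68.2, 71.8 and 65.6 CPM in the controls and at 63.7, 58.6 and 74.6 CPM in the cKO. Irf9, the DNA-binding partner of the STATs, was at 47.6, 45.5 and 40.6 CPM against 49.5, 63.0 and 36.7 CPM. Irf2, which competes with IRF1 for the same sites, was at 23.9, 22 and 19.4 CPM against 26.3, 28.3 and 20.9 CPM, higher in the cKO in each same-numbered pair, with a log2 fold change of 0.21 ± 0.16 (SE; adjusted p = 0.740). Irf7, the inducible amplifier of type I interferon, had the largest SE of the 7 and stood at 51.9, 49.6 and 26.8 CPM in the controls and at 20.8, 54.7 and 24.9 CPM in the cKO. The cKO libraries of Irf7 held both its highest and its lowest value.

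The RNA sensors followed the same order of libraries. Ifih1, which encodes the long double-stranded RNA sensor MDA5, stood at 17.3, 16.4 and 9.81 CPM in the controls and at 16.4, 35.3 and 10.0 CPM in the cKO. Ddx58, which encodes the sensor RIG-I, was at 39.6, 33.9 and 27.3 CPM against 30.04, 46 and 21.7 CPM. In each of these genes cKO replicate 2 alone exceeded every control.

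Among the 18 antiviral effectors, Ifitm1 was the only gene of all 47 whose cKO libraries lay above every control, beside 7.26% of all genes tested. None of the 47 had all cKO libraries below all controls, beside 7.98% of all genes. Ifitm1, which encodes a membrane protein that blocks virus entry and also marks mesenchymal and germ cells, is annotated at chr7:140967221-140969825 on the plus strand. It stood at 154, 176 and 188 CPM in the controls and at 255, 440 and 244 CPM in the cKO, a mean of 173 ± 17.3 against 313 ± 110 CPM (SD, n = 3 each). Its log2 fold change was 0.86 ± 0.24 (SE), with an adjusted p of 0.625 in edgeR. In the blocked fit its adjusted p was 0.0895, and without replicate 3 of both groups it was 0.0229. Exact permutation tests of the 3 against 3 libraries gave a two-sided p of 0.2 for Ifi44, 0.4 for Gbp3 and 0.5 for Oas2. For Ifitm1 that test gave 0.1, the smallest such a design allows, which every gene with separated groups gets. Ifitm3, a near relative on the same chromosome that is a stronger restriction factor of influenza virus, stood at 152, 154 and 120 CPM against 144, 215 and 138 CPM and overlapped between the groups. Reads of the Ifitm genes can be shared between these similar copies.

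Gbp3 and Oas2 did not pass the thresholds over all 6 libraries and did so without replicate 3 of both groups, Gbp3 also with the replicate block. Gbp3, an interferon-gamma-induced GTPase that acts on vacuolar pathogens, was at 42.6, 41.2 and 17.8 CPM in the controls and at 57.6, 78.9 and 23.8 CPM in the cKO. It was higher in the cKO in 3 of 3 same-numbered pairs, while cKO replicate 3 lay below control replicates 1 and 2. Over all 6 libraries its log2 fold change was 0.66 ± 0.50 (SE; adjusted p = 0.740), with the block it was 0.60 (adjusted p = 0.0643), and without replicate 3 of both groups it was 0.71 (adjusted p = 0.0245). Oas2, a double-stranded RNA-activated synthase of the 2′-5′ oligoadenylates that switch on RNase L, went the other way, at 24.9, 22.1 and 7.60 CPM in the controls and at 16.7, 12.3 and 6.73 CPM in the cKO. Its log2 fold change was -0.61 ± 0.50 (SE; adjusted p = 0.758), -0.55 with the block (adjusted p = 0.145) and -0.68 without replicate 3 of both groups (adjusted p = 0.0469). Rsad2, which encodes the antiviral enzyme viperin, was at 5.15, 3.63 and 2.95 CPM in the controls and at 3.01, 26.4 and 3.64 CPM in the cKO, so that its log2 fold change of 1.49 ± 0.86 (SE; adjusted p = 0.697) came from cKO replicate 2 and was -0.23 without it.

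The cKO libraries differed widely among themselves in some of the genes. In 16 of the 47 genes (34.0%) cKO replicate 2 was over 2 times cKO replicate 1, which held for 1.21% of all genes tested. The ratio was 8.74 for Rsad2, 5.65 for Ifit1, 5.13 for Oasl1, 4.79 for Isg15, 4.55 for Oas3, 4.19 for Ifit3 and 3.92 for Mx1, which were named after their values were seen. Ifit1, whose protein binds foreign RNA caps, stood at 24.6, 18.4 and 11.2 CPM in the controls and at 11.6, 65.4 and 7.17 CPM in the cKO. Isg15, which encodes the ubiquitin-like modifier, was at 29.1, 24.8 and 11.8 CPM against 12.1, 57.9 and 15 CPM. Both genes were below control replicates 1 and 2 in cKO replicates 1 and 3 and above all controls in cKO replicate 2. Without cKO replicate 2, 4 genes were lower in the cKO at the study's thresholds, Irf7, Mx1, Oas3 and Oasl1, with log2 fold changes of -0.90, -1.12, -1.64 and -0.80, beside 1.66% of all genes. These 4 calls had adjusted p-values of 0.9997.

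**Figure D3:**
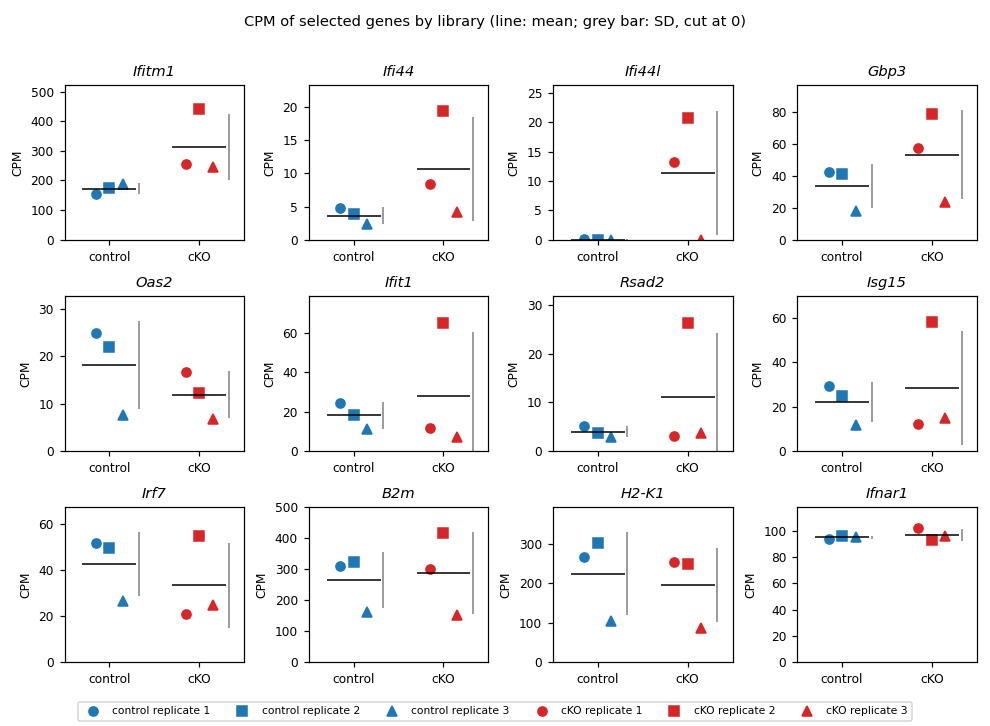
Each panel gives the CPM of a gene (vertical axis, from 0) in the 3 control (blue) and 3 cKO (red) libraries, with the replicate number as the symbol, the mean as a line and the SD as a grey bar. The groups are apart only for Ifitm1, cKO replicate 2 stands alone for Ifit1, Rsad2 and Isg15, replicate 3 is low in both groups for B2m and H2-K1, and Ifi44l is near 0 outside cKO replicates 1 and 2.

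Among the ISG15 system and the other induced genes, Ifi44 was the gene called. Ifi44, which encodes a cytoplasmic protein linked to antiviral and antiproliferative activity, is annotated at chr3:151730922-151749960 on the minus strand. It stood at 4.72, 3.95 and 2.32 CPM in the controls and at 8.42, 19.5 and 4.18 CPM in the cKO, a mean of 3.66 ± 1.22 against 10.7 ± 7.89 CPM (SD, n = 3 each). The lowest cKO library lay between the controls, and the cKO was higher in 3 of 3 same-numbered pairs. The log2 fold change was 1.54 ± 0.57 (SE; adjusted p = 0.636), 1.37 with the block (adjusted p = 0.108) and 1.68 without replicate 3 of both groups (adjusted p = 0.0365). The call was lost without control replicate 2 and without control replicate 3, at log2 fold changes of 1.60 and 1.30.

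The paralog next to it, Ifi44l, is not one of the 47 and is given because it adjoins Ifi44 and was noticed after its values were seen. It lies at chr3:151758737-151762892 on the same strand, and its counts were 2, 1 and 0 in the controls and 276, 392 and 0 in the cKO. A count of 0 allows up to 3 counts at this depth. The 31613 genes of the table were searched for the pattern of Ifi44l. The limits were at most 3 counts in each control and in cKO replicate 3, and at least 100 in cKO replicates 1 and 2. These limits follow its own counts, so that Ifi44l met them was fixed in advance, and no other gene did. Ifi44l did not enter the test of all 6 libraries because too few of them held counts. With no filter on low counts, edgeR's test over all 6 libraries gave it a log2 fold change of 7.56 and an unadjusted p of 0.0392. These passed the study's thresholds, while its adjusted p was 0.775. Without replicate 3 of both groups, which leaves out the cKO library with 0 counts, its log2 fold change was 7.64 (edgeR adjusted p = 1.27e-05). Of the 25 genes that start within 1000000 bases of Ifi44, 15 entered the test and Ifi44 alone passed the study's thresholds. The next gene on the far side of Ifi44l, the prostaglandin F receptor gene Ptgfr, had counts of 239, 232 and 236 in the controls and 358, 370 and 283 in the cKO, and its log2 fold change was 0.44, under that threshold of size. Reads of the Ifi44 and Ifi44l copies can be split between them in counting.

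The other genes of this role overlapped between the groups. Trim25, the ubiquitin ligase that activates RIG-I, stood at 62.0, 58.8 and 68.0 CPM in the controls and at 61.9, 65.3 and 69.6 CPM in the cKO. Xaf1, an interferon-induced promoter of apoptosis, was at 30.9, 26.2 and 21.7 CPM against 29.8, 47.1 and 26.2 CPM (log2 fold change 0.39 ± 0.25 SE, adjusted p = 0.710). Ifi27 was at 97.8, 96 and 65.8 CPM against 77.1, 70.1 and 76.9 CPM, with a log2 fold change of -0.21. Trim25 varied little in any library, while Xaf1 was highest in cKO replicate 2.

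The antigen presentation genes were low in replicate 3 of both groups, and none of the 6 passed the thresholds with or without that replicate. B2m, the light chain of MHC class I, stood at 310, 325 and 161 CPM in the controls and at 300, 416 and 151 CPM in the cKO. H2-K1, a classical class I heavy chain, was at 266, 301 and 104 CPM against 252, 248 and 86.6 CPM, lower in the cKO in 3 of 3 same-numbered pairs. H2-D1, the other classical heavy chain of this strain, was at 333, 379 and 173 CPM against 344, 356 and 154 CPM. In all of them replicate 3 was the lowest library of its group, and so it was for Psmb8, an immunoproteasome subunit gene, at 16.5, 16.5 and 9.30 CPM against 16.7, 19.3 and 11.1 CPM. Fold changes of the 6 genes ran from -0.20 to 0.15 on the log2 scale, with no adjusted p under 0.905. Class I heavy chains are similar enough that reads can be shared between them.

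With the replicate number as a block, 3 of 47 genes were higher at the study's thresholds (Ifitm1, Ifi44 and Gbp3), beside 2.05% of all genes, and 0 were lower, beside 4.37%. None of the 47 passed an adjusted p under 0.05 in that fit, beside 0.975% of all genes. Without replicate 3 of both groups the same 3 were higher, beside 4.49% of all genes, and Oas2 was lower, beside 7.55%. All 4 then passed an adjusted p under 0.05, which is 4 of 47 beside 6.81% of all genes. In those 4 libraries, 15 of 47 genes had both cKO libraries above both controls, beside 31.5% of all genes, and 4 had both below, beside 28.7%. In the same-numbered pairs, 9 of 47 genes were higher in the cKO in every pair (19.1%, against 22.7% of all genes), and Oas2 and H2-K1 were lower in every pair (4.26%, against 20.1%).

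**Figure D4:**
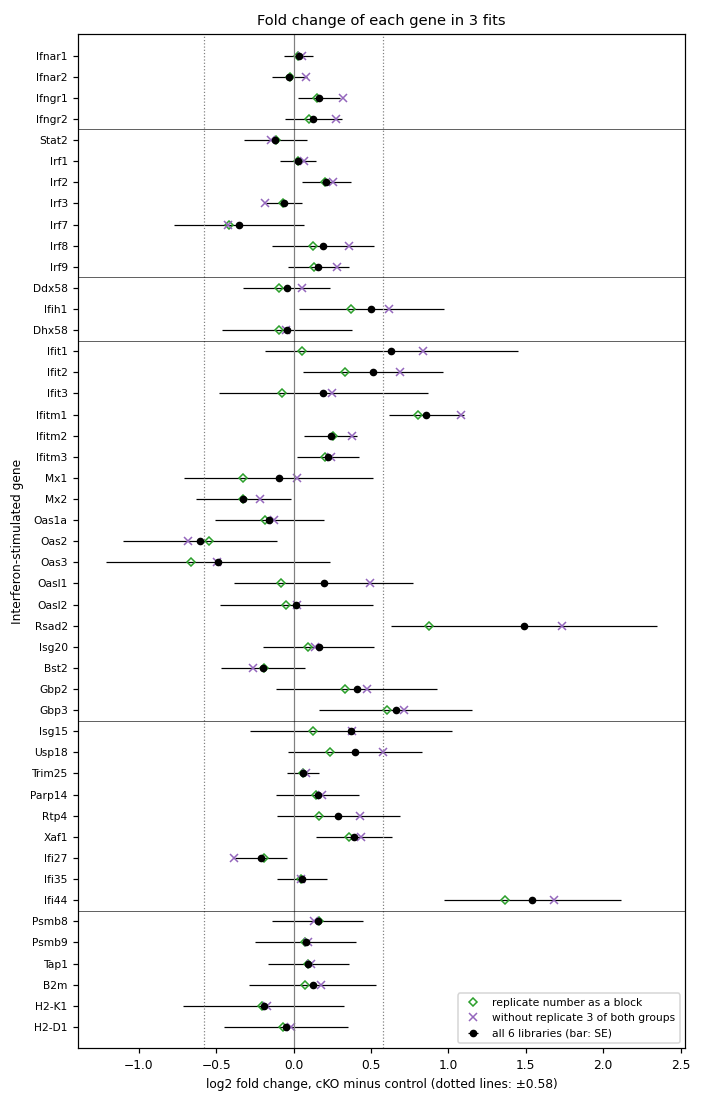
Points give the log2 fold change of each of the 47 genes (cKO minus control, horizontal axis) over all 6 libraries with its SE as a bar, with the replicate number as a block (green diamonds) and without replicate 3 of both groups (purple crosses). Dotted lines mark 0.58 in either direction. Ifitm1, Ifi44, Gbp3 and Rsad2 lie to the right of it in all 3 fits, Rsad2 with the widest bar.

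Compared per length of exon (GENCODE vM39), the mean levels in the controls ran from 0.594 CPM per kilobase for Oas3 and 0.595 for Ifi44 to 138 for Ifitm1, with B2m at 126, Ifitm3 at 111, H2-D1 at 98.6 and H2-K1 at 70.3 CPM per kilobase. In the cKO the level of Ifitm1 was 250 CPM per kilobase and that of Ifi44 was 1.74. The gene called with the larger fold change was thus among the lowest of the set, and the gene whose libraries did not overlap was the highest.

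The ligands that would drive these genes were at the edge of detection. Of 21 interferon genes listed, 7 were in the table, and together they had 5, 6 and 5 counts in the controls and 6, 5 and 9 counts in the cKO. Ifna5, Ifna6 and Ifna14 had 1 count each, in cKO replicate 3, control replicate 3 and cKO replicate 2. Ifng had 1 count, in control replicate 2, Ifne had 2 counts in control replicate 2 and 1 in cKO replicate 1, and Ifnk had 4, 1 and 1 counts in the controls and 1, 0 and 1 in the cKO. Ifnz, a type I interferon gene of mice, had 1, 2 and 3 counts in the controls and 4, 4 and 7 in the cKO. No difference in a ligand was detectable at this depth.

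Of 34 genes of interferon sensing and signalling, 1 was higher and 0 were lower at the study's thresholds, beside 1.1% and 2.71% of all genes. Without replicate 3 of both groups 3 were higher and 0 lower, beside 4.49% and 7.55%. The gene higher over all 6 libraries was Socs3, a feedback inhibitor of Janus kinases that cytokines induce, at 11.5, 8.63 and 12.4 CPM in the controls and at 19.2, 18.5 and 17.9 CPM in the cKO. The groups did not overlap, and the log2 fold change was 0.77 ± 0.17 (SE; adjusted p = 0.558). Its adjusted p was 0.0504 with the block, 0.0236 with DESeq2 and 0.0133 without replicate 3 of both groups. Of 77 other interferon-induced genes tested, 1 was higher and 0 were lower, and it was Plscr2, a phospholipid scramblase gene, at 1.06, 0.842 and 0.794 CPM against 1.82, 4.19 and 1.30 CPM (log2 fold change 1.43 ± 0.48 SE, adjusted p = 0.626). Without replicate 3 of both groups, 10 of these other induced genes were higher and 1 was lower, beside 4.49% and 7.55% of all genes in that fit. Of 28 other antigen presentation genes none passed in either direction over all 6 libraries. Without replicate 3 of both groups 2 were lower and 0 higher, beside 7.55% and 4.49% of all genes. With the block 2 were lower, beside 4.37% of all genes, the nonclassical class I genes H2-Q6 and H2-Q7. H2-Q6 stood at 20.5, 21.9 and 0.964 CPM in the controls and at 9.61, 7.16 and 0.869 CPM in the cKO, and its reads can be shared with H2-Q7.

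Summed macrophage and neutrophil markers were highest in cKO replicate 2 and lowest in replicate 3 of each group, as most of the 47 genes were. In cKO replicate 1 both sums lay above every control. Against the control mean, the median in that library was 0.03 over the 47 genes. By role it was 0.12 for the receptors, 0.15 for the transcription factors, -0.15 for the RNA sensors and -0.28 for the antiviral effectors. For the ISG15 system and other induced genes it was -0.11, and for the antigen presentation genes 0.31. The other markers given here did not follow the order of the macrophage and neutrophil sums. The summed level of 20 macrophage markers was 1717, 1896 and 1172 CPM in control replicates 1, 2 and 3 and 2282, 2773 and 952 CPM in the cKO, so that replicate 3 was the lowest in both groups and cKO replicate 2 the highest of all. Lyz2, the lysozyme gene of myeloid cells, was at 321, 349 and 106 CPM against 507, 726 and 93.0 CPM. The 12 neutrophil markers summed to 28.9, 20.3 and 8.33 CPM against 82.3, 150 and 9.29 CPM. At the study's thresholds 2 of the 7 tested were higher in the cKO, beside 1.1% of all genes, and 0 of the 20 macrophage markers were. Without replicate 3 of both groups, 6 of 7 neutrophil and 6 of 20 macrophage markers were higher, beside 4.49% of all genes. The 15 lymphocyte and natural killer markers summed to 34.4 to 55.3 CPM in the controls and 32.9 to 39.3 CPM in the cKO, and 4 of them had at most 3 counts in every library. The 10 dendritic cell markers, which include the set's own Bst2, summed to 180 to 208 CPM against 191 to 214 CPM. Enamel epithelium markers went the other way, from 3044 to 31015 CPM in the controls and from 2358 to 50796 CPM in the cKO, highest in replicate 3 of each group, and 12 endothelial markers were also highest there (748 and 1213 CPM). In cKO replicate 1, where the macrophage markers summed to more than in any control, 14 of the 47 genes lay above every control (29.8%, against 28.3% of all genes) and 8 lay below every control (17.0%, against 27.9%). In cKO replicate 2, 35 lay above every control (74.5%, against 35.8%), and in cKO replicate 3, 22 lay below every control (46.8%, against 27.0%). The part of these cells in the levels of the interferon-stimulated genes was not tested, and in bulk RNA a change in the number of cells of a type and a change in RNA per cell cannot be told apart.

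**Figure D5:**
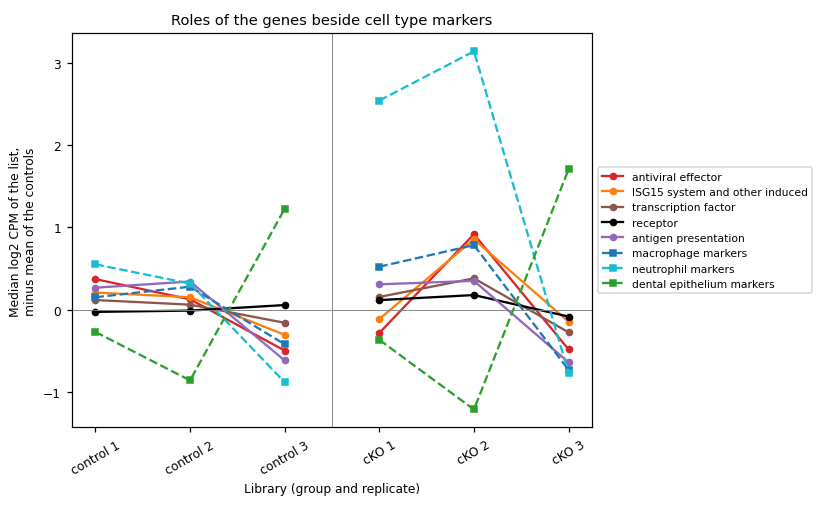
Points give the median log2 CPM of each list in each library, minus the mean of the controls; lines only join the points of a list within a group. The antiviral effectors reach 0.92 in cKO replicate 2 and -0.28 in cKO replicate 1, the antigen presentation genes and the macrophage markers are both low in replicate 3 of each group, and the receptors stay between -0.08 and 0.18.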

How the data were processed

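The 6 libraries of 2 groups were used. The authors deposited whole-number counts per gene, not normalized, made with HISAT2 and HTSeq per the study's methods. The submitters' notes also name Bowtie2, DESeq2 and GRCm39, whereas 47.4% of 24547 genes share a start or end with RefSeq GRCm38.p6 and 1.3% of 30436 share one with GENCODE vM39 on GRCm39, so positions are given as GRCm38. The study's supplement lists HTSeq with the setting -s no, which counts reads without regard to strand. The authors' own comparison columns (mean, fold change, p-values) were not used.

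R 4.3.3 and edgeR 4.0.16 were used for the fits (genes kept by filterByExpr at a minimum of 10 counts, TMM scaling, robust quasi-likelihood test, Benjamini-Hochberg adjustment over 16519 genes). CPM use TMM-scaled library sizes, and within-group SDs use log2 CPM with a prior count of 2. DESeq2 1.42.0, limma 3.58.1 voom, RLE or total-count scaling, no or a strict filter (10 counts in every library), the replicate block, and left-out libraries were alternatives. The scripts were tested on simulated data. The genes and lists were chosen with earlier results of these data known.

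Genes given in full were those passing the thresholds over all libraries, with the block or without replicate 3 of both groups, and in each role the 2 with the highest mean CPM and the 2 with the smallest p. Deviations of same-numbered libraries from their group means, numbered in the sample labels, correlated at 0.453, 0.465 and 0.663. Control replicate 2 and cKO replicate 1 correlated at 0.455, and control replicate 1 and cKO replicate 2 at 0.38. These values set replicate 3 apart but do not tell replicates 1 and 2 apart. For replicates 1 and 2, the block and the same-numbered pairs thus rest on the numbers in the labels alone.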

Additional observations from a re-analysis of the deposited data

How the results depend on the processing

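Over all 6 libraries, 2 genes were higher and 0 lower at the study's thresholds, and 0 passed an adjusted p under 0.05, also under 0.1. With no filter on low counts 1 was higher, since Ifi44 was lost, and with DESeq2 3 were higher, with Rsad2 added. With voom quality weights 3 were lower (Irf7, Mx1 and Oas3), beside 1101 of 16519 genes. In that fit 2 passed an adjusted p under 0.05, beside 8.38% of all genes, and the median log2 fold change was -0.06. Without replicate 3 of both groups 1 was lower (7.55% of all genes) and 4 passed an adjusted p under 0.05 (6.81%). In those libraries 15 lay above the controls (31.5%) and 4 below (28.7%). With total counts and no scaling factor 2 lay above the controls. Leaving out each library in turn gave 0 to 3 genes higher and 0 to 4 lower, beside 83 to 677 and 282 to 1161 of all genes tested. It gave 1 to 12 above the controls (12 without cKO replicate 3) and 0 to 5 below (5 without cKO replicate 2). The shares of all genes in these orders were not counted. Medians ran from -0.17 to 0.31. The replicate block gave 3 higher and a median of 0.07 and changed the call of no named gene but Gbp3.

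The sign of genes not called in edgeR's test over all 6 libraries turned in places. Among them were Rsad2 and Ifih1, whose log2 fold changes in that test were 1.49 and 0.50 and so not near 0. Total counts gave log2 fold changes of 0.011 for Irf3, 0.034 for Ddx58 and 0.037 for H2-D1. Voom gave -0.0059 for Ifitm3, -0.046 for Rsad2 and -0.056 for B2m. Without replicate 3 of both groups Ddx58 was at 0.052. With a library left out the values ran from -0.0040 to 0.062 for Ifnar1, -0.023 to 0.31 for Ifngr2, -0.17 to 0.013 for Irf3, -0.047 to 0.33 for Irf9, -0.38 to 0.18 for Ddx58, -0.14 to 0.83 for Ifih1, -0.0102 to 0.34 for Ifitm3, -0.23 to 1.94 for Rsad2, -0.069 to 0.35 for Psmb8, -0.24 to 0.43 for B2m, -0.53 to 0.16 for H2-K1 and -0.32 to 0.25 for H2-D1. Of 308 values of the 22 named genes under an alternative, 268 kept their direction and their side of the thresholds. The cause of these changes was not tested. Searching the whole 300-base promoter window gave 16 of 39 genes with an ISRE (3.99% of all genes). With 3 pools a group and a median within-group SD of 0.52, small differences were not detectable.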
